A study of Mus musculus with 6 samples.

Results

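The 10 genes described here handle copper, iron and zinc. They are the metallothionein genes Mt1, Mt2 and Mt3, the copper transport genes Slc31a1, Atox1 and Cp, the ferritin genes Fth1 and Ftl1, and the transferrin genes Trf and Tfrc. They were chosen by symbol, because cuprizone chelates copper, and all 10 were found among the 20323 genes with values.

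RNA was sequenced from GFP-positive cells of the mouse hippocampus, isolated by magnetic sorting, with 1 animal per library. All animals were Nestin-CreERT2;Rosa26-mGFP mice, in which an inducible Cre under the Nestin promoter switches on a membrane GFP, so that the reporter marks Nestin-expressing progenitors and the cells derived from them. All received a cuprizone diet for 10 weeks and then 4 weeks of recovery, during which 3 animals were given vehicle (0.1% bovine serum albumin in saline) and 3 were given neuregulin 1 beta 1 (Nrg-1β1), a ligand of ErbB receptors, at 60 µg per kg per day as the series description gives the dose (the sample labels give it in grams). The animals' age is not given in the sources used here. No library came from an animal without cuprizone, so the data compare Nrg-1β1 with vehicle after cuprizone and hold no measure of what cuprizone itself did to these genes.

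Copper enters cells through the transporter CTR1, the product of Slc31a1, and the chaperone ATOX1 carries it to the copper pumps ATP7A and ATP7B. The pumps load copper into ceruloplasmin, the product of Cp, a ferroxidase that helps iron leave cells through ferroportin. Iron arrives on transferrin (Trf), is taken up through the transferrin receptor (Tfrc) and is stored in ferritin, a shell of heavy (Fth1) and light (Ftl1) chains. Metallothioneins are small cysteine-rich proteins that bind zinc and copper. Mt1 and Mt2 are induced by metals through the transcription factor MTF1, while Mt3 is the form typical of the brain. In the brain Trf is made mainly by oligodendrocytes and choroid plexus, and Cp by astrocytes and choroid plexus.

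The sequences through which cells are known to adjust several of these genes to metal are shown first, because the results compare the genes that share them. The mRNAs of ferritin and of the transferrin receptor carry iron responsive elements, hairpins bound by the iron regulatory proteins when iron is low. Binding in the 5′ UTR blocks translation, and binding in the 3′ UTR stabilizes the mRNA. The pattern searched was a C, 5 bases, the loop CAGTGN with a last base other than G, and 5 bases able to pair with the first 5, in the principal GENCODE M21 transcript of each gene. It was found in the 5′ UTR of 0.0909% and in the 3′ UTR of 0.391% of genes. Among the 10 genes, the iron list below and Alas2, the gene of the first enzyme of heme synthesis in red blood cell precursors, 5 genes held it. Fth1, Ftl1, Alas2 and the ferroportin gene Slc40a1 each held 1 such site in the 5′ UTR, and Tfrc held 4 in the 3′ UTR. The loop is in capitals.
Fth1 5′ UTR: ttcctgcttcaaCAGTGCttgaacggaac
Ftl1 5′ UTR: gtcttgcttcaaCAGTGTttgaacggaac
Slc40a1 5′ UTR: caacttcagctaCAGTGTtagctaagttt
Alas2 5′ UTR: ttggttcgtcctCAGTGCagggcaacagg
Tfrc 3′ UTR, site 1: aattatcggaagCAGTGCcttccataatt
Tfrc 3′ UTR, site 2: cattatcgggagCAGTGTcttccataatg
Tfrc 3′ UTR, site 3: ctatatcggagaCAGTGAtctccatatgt
Tfrc 3′ UTR, site 4: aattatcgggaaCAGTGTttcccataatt

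For the metallothionein genes, the 250 bases before the RefSeq start (GRCm38.p6) are shown. The part of these sequences in the levels given below was not tested. The capitals mark the core of the metal response element bound by MTF1, searched as TGCACNC and TGCGCNC on both strands. The Mt2 window held 3 matches, the Mt1 window 1 and the Mt3 window 0. Of 32851 RefSeq windows of this length, 21.4% held at least 1 match and 1.26% at least 3. With the 50 bases after the start included, the counts were 4 for Mt2, 3 for Mt1 and 1 for Mt3. Of all windows of that longer length, 25.7% held at least 1 match and 1.97% at least 3. A match is a run of letters and not a measured binding site. RefSeq windows were found for 9 of the 10 genes. Outside the metallothionein genes, a Tfrc window held 2 overlapping matches, and the windows of the other members held none.
Mt1, chr8:94178839-94179088, + strand: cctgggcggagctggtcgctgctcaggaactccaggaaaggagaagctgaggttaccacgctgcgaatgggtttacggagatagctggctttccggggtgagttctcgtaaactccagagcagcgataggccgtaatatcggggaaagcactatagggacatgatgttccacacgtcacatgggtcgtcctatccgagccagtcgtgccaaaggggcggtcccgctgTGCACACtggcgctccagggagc
Mt2, chr8:94172368-94172617, + strand: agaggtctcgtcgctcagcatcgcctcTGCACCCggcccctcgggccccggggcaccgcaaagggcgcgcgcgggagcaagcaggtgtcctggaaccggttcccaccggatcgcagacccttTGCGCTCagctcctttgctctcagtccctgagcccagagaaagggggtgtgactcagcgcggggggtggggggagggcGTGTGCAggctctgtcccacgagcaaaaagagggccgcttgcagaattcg
Mt3, chr8:94152357-94152606, + strand: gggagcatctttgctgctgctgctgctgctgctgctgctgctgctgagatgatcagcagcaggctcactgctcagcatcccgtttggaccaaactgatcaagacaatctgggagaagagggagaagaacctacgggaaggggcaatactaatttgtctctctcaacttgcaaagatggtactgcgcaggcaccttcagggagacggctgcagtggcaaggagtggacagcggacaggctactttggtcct

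The libraries differed in depth, and this touches every result. The reads recovered from the deposited values numbered 72953034 and 47076006 in vehicle libraries 1 and 3, but 1075813 in vehicle library 2 and 567073 to 1327003 in the Nrg-1β1 libraries, so that depth and group partly coincide. Deep and shallow libraries also differed in read ratios within a library (Mt3 to Mt1 and Ftl1-ps1 to Ftl1, below). Whether they were also prepared or counted differently was not tested. Matching depth, as used below, refers to the number of reads only. Sex-linked transcripts also differed within the vehicle group and between the groups. On the log2(normalized count + 4) scale, the Y-linked gene Ddx3y stood at 3.16, 2.83 and 6.96 across the vehicle animals and at 7.26, 6.86 and 5.63 across the Nrg-1β1 animals. Xist stood at 7.65, 9.39 and 6.07 against 3.84, 4.27 and 2.82. Vehicle libraries 1 and 2 were thus low in Ddx3y, while vehicle library 3 and all Nrg-1β1 libraries were higher, and Xist was higher in each vehicle library than in each Nrg-1β1 library. Vehicle library 3 held reads of both Xist (1045) and Ddx3y (1994), for which the labels give no reason. Without vehicle libraries 1 and 2, the differences were -2.93 for Cp, -0.96 for Trf and 3.29 for Mt3. That comparison rests on vehicle library 3 alone, a deep library set against shallow ones. The part of sex in the differences was not tested. The progenitor label was met in part: the stem cell factor gene Sox2 averaged 8.60 and 9.07 on the log2(normalized count + 4) scale in vehicle and Nrg-1β1, the progenitor filament gene Nes 6.90 and 5.25, and the proliferation gene Mki67 averaged 2.79 and 2.84, close to the value of 2 that stands for no read. Of 10 progenitor markers 1 rose with Nrg-1β1, Sox1, and 9 did not pass. At an unadjusted p of 0.05, 2 were higher and 3 lower (Nes, Vim and Prom1, at -1.65, -1.41 and -1.58), against 6.15% and 6.86% of all genes. Of the 10 progenitor marker differences 5 were negative, and the median was -0.19. Their summed normalized counts were 1335 to 1673 in vehicle and 1803 to 2115 in Nrg-1β1. The rise of Sox1, 1.96 (adjusted p = 0.0194, limma), was lost in 14 of 18 alternative settings and was 0.90 against the vehicle library of matching depth. Myelin transcripts were plentiful, with Mbp at 16.70 and 16.62. Nothing in the labels says that animals were littermates or handled in batches.

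None of the 10 genes passed the threshold of an adjusted p of 0.05 between Nrg-1β1 and vehicle (limma, adjusted over all 20323 genes), where 1.06% of all genes passed. At an unadjusted p of 0.05, 4 of the 10 lay under it, namely Mt3, which was higher with Nrg-1β1, and Cp, Trf and Atox1, which were lower. Of all genes 13.0% lay under it, 6.15% higher and 6.86% lower. The groups did not overlap for 2 of the 10, Cp and Trf, both lower with Nrg-1β1, against 17.7% of all genes (10.4% lower and 7.37% higher). The difference was negative for 6 of the 10 and for 47.8% of all genes. The median log2 difference (Nrg-1β1 minus vehicle) was -0.34 over the 10 genes and 0.03 over all genes. Levels are given below as log2(normalized count + 4), and a difference on this scale understates the change of genes with few reads.

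**Figure D1:**
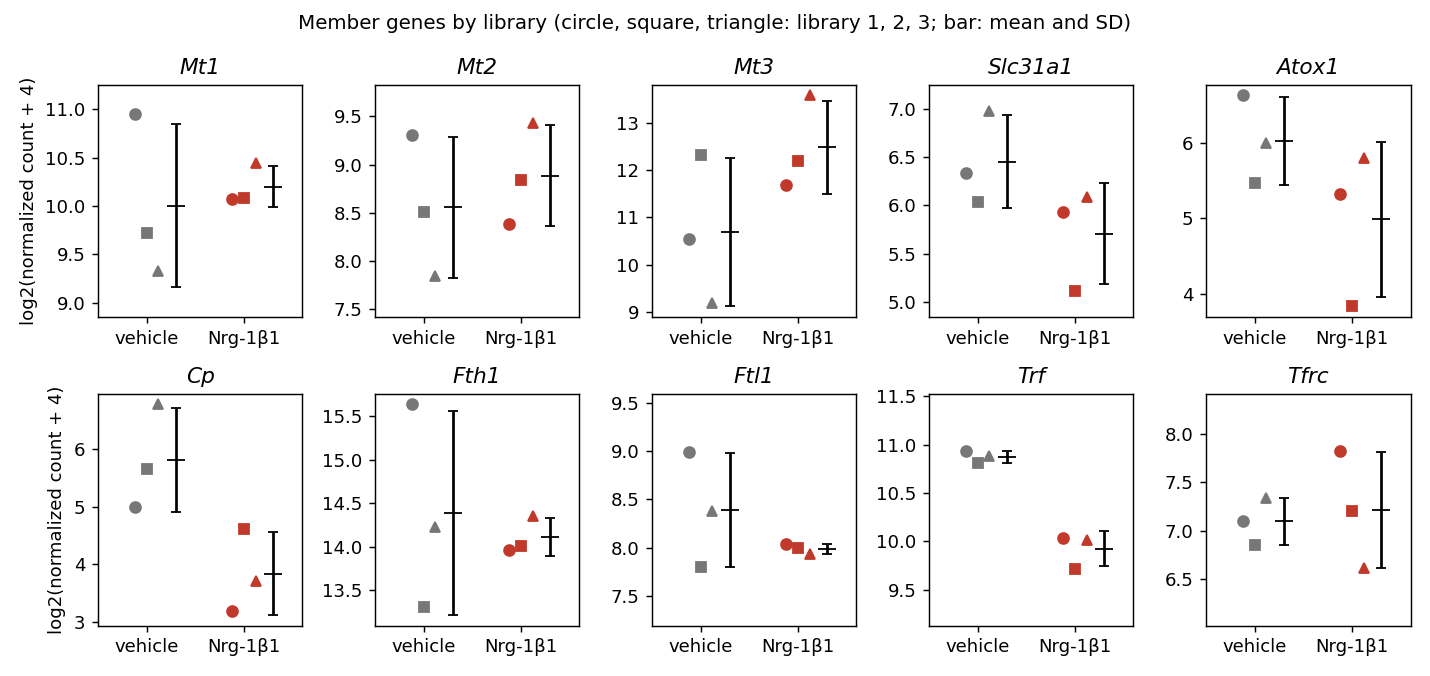
Log2(normalized count + 4) of the 10 genes in each library (vertical axis, scaled separately for each gene) for vehicle (grey) and Nrg-1β1 (red); symbols stand for library 1, 2 and 3, and the bar for the mean and SD of 3 libraries. Cp and Trf are the genes whose groups do not overlap, and Mt3 has the widest spread.

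Mt3, whose product was first described as an inhibitor of neuronal growth, had the largest positive difference of the 10. Its level was 10.54, 12.31 and 9.19 in vehicle libraries 1 to 3 and 11.68, 12.19 and 13.58 in Nrg-1β1 libraries 1 to 3. Vehicle library 2, the shallow one, lay within the Nrg-1β1 range, and the 2 deep vehicle libraries lay below it. The difference was 1.80 ± 0.59 (SE, 95% interval 0.56 to 3.05, adjusted p = 0.162, limma). Vehicle library 2 alone matched the Nrg-1β1 libraries in depth, and against it the difference was 0.17. Without vehicle library 3 it was 1.06. After centring of each library on its median it passed (2.02, adjusted p = 0.0371), a scaling that moved the median difference of all genes from 0.03 to 0.25.

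Mt1 and Mt2, the stress- and metal-inducible forms, did not separate the groups. Mt1 stood at 10.95, 9.72 and 9.33 in vehicle and at 10.07, 10.09 and 10.44 in Nrg-1β1, a difference of 0.20 ± 0.36 (SE, 95% interval -0.56 to 0.96, adjusted p = 0.817, limma). Mt2 stood at 9.31, 8.51 and 7.84 in vehicle and at 8.39, 8.84 and 9.43 in Nrg-1β1, a difference of 0.33 ± 0.36 (SE, 95% interval -0.42 to 1.08, adjusted p = 0.716, limma). For both, the vehicle libraries spanned more than the Nrg-1β1 libraries, with vehicle library 3 lowest. Both intervals include 0.

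The 3 metallothionein genes can be compared within a library by the ratio of their reads, which needs no normalization between libraries, and their transcripts are of similar length (549, 511 and 536 bases for Mt1, Mt2 and Mt3). The Mt1 to Mt2 ratio was 3.12, 2.32 and 2.84 in vehicle and 3.23, 2.38 and 2.03 in Nrg-1β1. The Mt3 to Mt1 ratio was 0.754, 6.05 and 0.907 in vehicle and 3.06, 4.33 and 8.80 in Nrg-1β1. The first ratio thus moved little while the second spread widely, with the deep vehicle libraries 1 and 3 at its low end and all shallow libraries, vehicle library 2 included, above them. Among the 45 pairs of the 10 genes, Mt1 and Mt2 had the most similar profiles, with a root mean square difference of 0.24 log2 units between their centred values in the 6 libraries. No 50-base stretch of the principal transcript of any of these 3 genes occurred in another annotated gene.

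**Figure D2:**
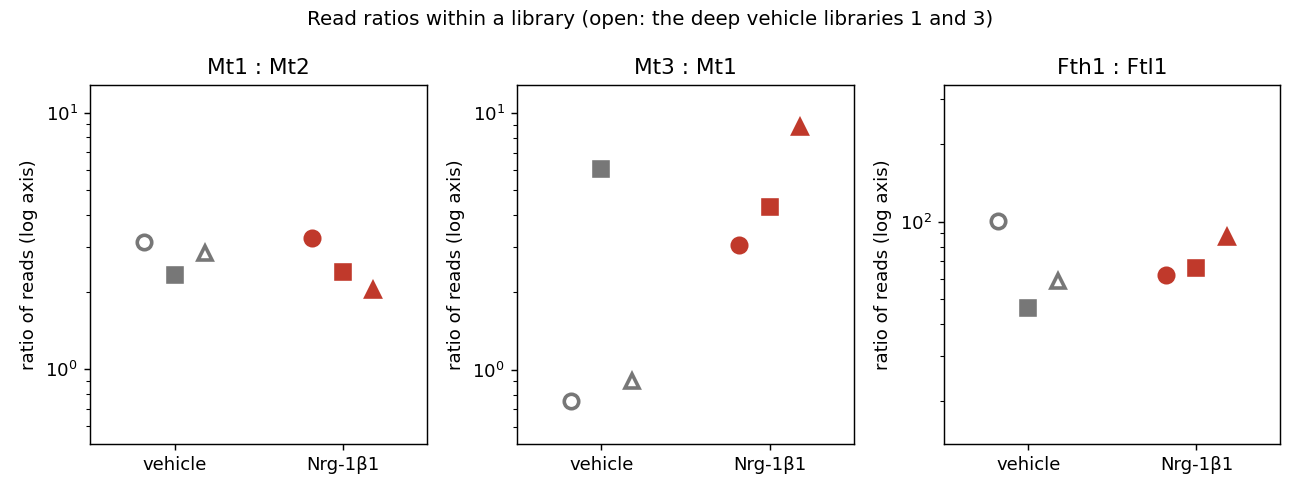
Ratio of reads between pairs of genes within each library (log axis) for vehicle (grey) and Nrg-1β1 (red), with the deep vehicle libraries open. Mt1 to Mt2 stays between 2.03 and 3.23, whereas Mt3 to Mt1 runs from 0.754 to 8.80 and is lowest in both deep libraries, and Fth1 to Ftl1 overlaps between the groups.

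The copper importer gene Slc31a1 and the chaperone gene Atox1 were lower on average with Nrg-1β1 without passing. Slc31a1 was at 6.34, 6.04 and 6.98 in vehicle and at 5.93, 5.11 and 6.08 in Nrg-1β1, a difference of -0.74 ± 0.38 (SE, 95% interval -1.54 to 0.06, adjusted p = 0.434, limma). Only Nrg-1β1 library 3 reached the vehicle range. Atox1 was at 6.63, 5.46 and 5.99 in vehicle and at 5.33, 3.83 and 5.80 in Nrg-1β1, a difference of -1.04 ± 0.49 (SE, 95% interval -2.07 to -0.01, adjusted p = 0.375, limma). Nrg-1β1 library 3 again lay inside the vehicle range and library 2 was lowest. The Nrg-1β1 values of both genes rest on few reads, 11, 6 and 21 for Slc31a1 and 7, 2 and 17 for Atox1. Without Nrg-1β1 library 2 the differences were -0.45 for Slc31a1 and -0.47 for Atox1, and without vehicle library 3 that of Slc31a1 was -0.48. Against the vehicle library of matching depth they were -0.33 and -0.48.

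Cp had the largest negative difference of the 10. Its level was 4.996, 5.65 and 6.77 in vehicle and 3.20, 4.61 and 3.71 in Nrg-1β1, so every Nrg-1β1 library lay below every vehicle library. The difference was -1.97 ± 0.54 (SE, 95% interval -3.09 to -0.84, adjusted p = 0.0807, limma) and did not pass. The Nrg-1β1 libraries held 1, 4 and 3 reads of Cp, against 461, 15 and 1739 in vehicle. In normalized counts, with exact Poisson 95% intervals that cover counting error only, Nrg-1β1 library 2 had 20.4 (5.57 to 52.3) and vehicle library 1 had 27.9 (25.4 to 30.6), so these neighbours did not differ beyond counting error.

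Trf had the smallest spread of the 10 within vehicle (SD 0.06). Its level was 10.93, 10.81 and 10.88 in vehicle and 10.04, 9.72 and 10.01 in Nrg-1β1, with no overlap. The difference was -0.95 ± 0.29 (SE, 95% interval -1.55 to -0.35, adjusted p = 0.117, limma), and -0.88 without the 2 deep vehicle libraries. It stayed between -1.26 and -0.74 in all 18 alternative settings and passed in none of them, with adjusted p from 0.0683 to 0.511 (limma). The counts behind it were larger than for Cp, 203, 164 and 339 reads in the Nrg-1β1 libraries. Of the 50-base stretches of the principal Trf transcript, 79.8% also occur in the annotated gene Gm20425, so reads could be shared with it.

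Tfrc, through which cells take up the iron carried by transferrin, differed by 0.12 ± 0.33 (SE, 95% interval -0.58 to 0.82, adjusted p = 0.886, limma). It was at 7.10, 6.85 and 7.34 in vehicle and at 7.82, 7.20 and 6.62 in Nrg-1β1, and the vehicle values lay inside the Nrg-1β1 range. The sign of this small difference turned in 5 of 18 alternative settings. The ratio of Trf to Tfrc reads was 14.7, 16.1 and 11.96 in vehicle and 4.72, 5.86 and 10.9 in Nrg-1β1, lower in each Nrg-1β1 library than in each vehicle library. The Nrg-1β1 ratios rest on 43, 28 and 31 Tfrc reads, so 10.9 and 11.96 did not differ beyond counting error.

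The ferritin genes, which carry the 5′ hairpins shown above, did not pass. Fth1 was at 15.64, 13.30 and 14.23 in vehicle and at 13.97, 14.01 and 14.36 in Nrg-1β1, a difference of -0.28 ± 0.63 (SE, 95% interval -1.61 to 1.05, adjusted p = 0.855, limma). Vehicle library 1 stood far above the rest, where Fth1 took 1.15% of all reads, against 0.304% to 0.674% in the other libraries, and without that library the difference was 0.34. Ftl1 was at 8.99, 7.80 and 8.37 in vehicle and at 8.03, 7.99 and 7.93 in Nrg-1β1, a difference of -0.40 ± 0.31 (SE, 95% interval -1.05 to 0.25, adjusted p = 0.641, limma). Without vehicle library 1 the Ftl1 difference was -0.10, and without vehicle library 2 it was -0.70. Both genes followed the same order among the vehicle libraries, highest in library 1 and lowest in library 2. The ratio of Fth1 to Ftl1 reads was 101, 46.1 and 58.6 in vehicle and 62.0, 65.9 and 87.3 in Nrg-1β1, and the groups overlapped.

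Ftl1 is the member whose reads are hardest to assign, since 78.9% of the 50-base stretches of its transcript occur in 15 other annotated genes, among them the pseudogene Ftl1-ps1. The deposited table lists Ftl1-ps1 separately. Its reads numbered 34, 13 and 7 across the vehicle animals and 9, 11 and 22 across the Nrg-1β1 animals. As a percentage of Ftl1 reads this was 0.408, 18.3 and 0.129 in vehicle and 18, 22.4 and 27.8 in Nrg-1β1. The share was thus low in both deep libraries and high in all 4 shallow ones. The sum of Ftl1 and Ftl1-ps1 in normalized counts was 506, 259 and 328 in vehicle and 305, 306 and 307 in Nrg-1β1. The Fth1 transcript shares 6.59% of its stretches with 1 other gene.

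Levels were set side by side as normalized counts per kilobase of the principal transcript. In mean log2(normalized count per kilobase + 1) over the 6 libraries, Fth1 stood at 14.36 ± 0.77 (SD, n = 6), Mt3 at 12.48 ± 1.53, Mt1 at 10.96 ± 0.56 and Mt2 at 9.68 ± 0.60. Trf followed at 9.04 ± 0.54, Ftl1 at 8.22 ± 0.44 and Atox1 at 6.25 ± 1.06, and Tfrc (4.87 ± 0.41), Slc31a1 (4.18 ± 0.61) and Cp (2.81 ± 1.30) were lowest. Mt3 and Mt1 exchanged places between libraries, as did Mt3 and Fth1, Mt2 and Trf, and neighbours among Atox1, Tfrc and Slc31a1, so the order within these pairs did not hold beyond their spread. Cp was the lowest and Ftl1 the sixth of the 10 in every library.

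Other genes of metal handling were read from lists. Of all genes, 1.06% passed the adjusted threshold and 13.0% lay under an unadjusted p of 0.05 (6.15% higher and 6.86% lower, limma). In the copper list 0 of 21 measured genes passed in either direction (limma), with a median difference of -0.07 and a mean of the opposite sign, 0.06, against a median of 0.03 over all genes, and 3 lay under an unadjusted p of 0.05. Sod1, the copper-zinc superoxide dismutase gene, was at 7.38, 6.92 and 5.46 in vehicle and at 7.72, 8.15 and 7.98 in Nrg-1β1, a difference of 1.36 (adjusted p = 0.0993, limma). Fdx1, a mitochondrial ferredoxin gene, differed by 1.23 (0.173), and Atp7a, the copper pump that receives copper from ATOX1, by -1.23 (0.302). Slc31a2, a relative of the importer, differed by -0.83 (0.483). Sod1 passed under centring on library medians (1.58, adjusted p = 0.0225, limma). It was 0.80 without vehicle library 3 (adjusted p = 0.616, limma) and 1.03 against the vehicle library of matching depth, and adjusted p ran from 0.0102 to 0.799 over its 18 alternatives. Atp7a was at -0.81 without Nrg-1β1 library 3, and its Nrg-1β1 levels, 4.29, 4.88 and 3.33, rest on few reads.

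In the iron list 0 of 28 measured genes passed (limma), with a median difference of -0.13, and 3 lay under an unadjusted p of 0.05. Slc40a1, the gene of the iron exporter ferroportin with which ceruloplasmin works, was at 6.14, 5.56 and 6.89 in vehicle and at 4.29, 5.11 and 4.26 in Nrg-1β1, with no overlap between the groups. Its difference was -1.64 ± 0.44 (SE, adjusted p = 0.0775, limma). The Nrg-1β1 values of Slc40a1 rest on few reads. Its level of 5.11 in Nrg-1β1 library 2 equals that of Slc31a1 there, which stands for 6 reads. The lack of overlap was not weighed against counting error. In the iron list the groups did not overlap for 4 genes lower with Nrg-1β1 and 3 higher, Pcbp2 and Nfs1 among the latter. Of all genes this held for 10.4% lower and 7.37% higher. Pcbp2, an iron chaperone gene, differed by 0.71 (0.266), Bach1, a heme-sensing repressor gene, by -0.95 (0.309), and Nfs1, an iron-sulfur cluster enzyme gene, by 0.61 (0.434). Against the vehicle library of matching depth the Slc40a1 difference was -1.01. That of Bach1 was -1.68 there and -0.58 without vehicle library 2, and that of Nfs1 0.38 there. Pcbp2 was at 0.37 without vehicle libraries 1 and 2.

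Of the 5 genes shown with iron responsive hairpins, Alas2 fell with Nrg-1β1 and the other 4 did not pass. Of all genes 0.625% fell at the adjusted threshold. Alas2 was neither a member nor in the iron list and was named after its values were seen, so this count says nothing about the set. Alas2, which is also 1 of the erythroid markers given below, stood at 6.74, 6.50 and 6.88 in vehicle and at 5.50, 4.27 and 4.01 in Nrg-1β1, with no overlap. Its Nrg-1β1 values rest on few reads. Its difference was -2.11 ± 0.42 (SE, limma, adjusted p = 0.0199), and the call was lost in 14 of 18 alternative settings, among them each that left out a library (-2.56 to -1.82). The differences of the others were -1.64 for Slc40a1, -0.40 for Ftl1, -0.28 for Fth1 and 0.12 for Tfrc. The summed erythroid markers were lower in each Nrg-1β1 library than in each vehicle library, though 3 of 8 differences were positive. The part of these markers in the level of Alas2 was not tested.

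In the zinc list 0 of 16 measured genes passed (limma), with a median of -0.17, and 1 lay under an unadjusted p of 0.05. That gene was Slc39a10, a zinc importer gene, at -1.47 (adjusted p = 0.0939, limma), followed by Slc39a3 at -0.56 (0.538), Slc30a4 at -0.44 (0.678) and Slc30a7 at -0.51 (0.681). Mtf1, the gene of the metal-sensing factor, differed by 0.01 ± 0.31 (SE, adjusted p = 0.996, limma).

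Cytochrome c oxidase is the copper enzyme of the respiratory chain. Of its 10 nuclear-encoded subunit genes 1 rose, Cox5a, which went from 6.69, 6.40 and 5.10 in vehicle to 8.17, 8.15 and 7.56 in Nrg-1β1, or 1.90 ± 0.38 higher (SE, limma, adjusted p = 0.0194). The other 9 did not pass, and the list median was 0.87. At an unadjusted p of 0.05, 4 of the 10 were higher, against 6.15% of all genes, and 9 of 10 differences were positive, against 10603 of all 20323. The Cox5a call was lost in 13 of 18 alternative settings, with adjusted p from 5.999e-05 to 0.636 over all of them (limma). Of 10 targets of the oxidative stress factor NRF2, 0 passed (limma), 0 lay under an unadjusted p of 0.05 and the median was 0.16. Gclm and Gclc, which encode the enzyme of the first step of glutathione synthesis, differed by 0.61 (adjusted p = 0.461) and 0.49 (0.556), and the peroxidase gene Prdx1 and the thioredoxin gene Txn1 by 0.45 (0.709) and 0.36 (0.727).

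**Figure D3:**
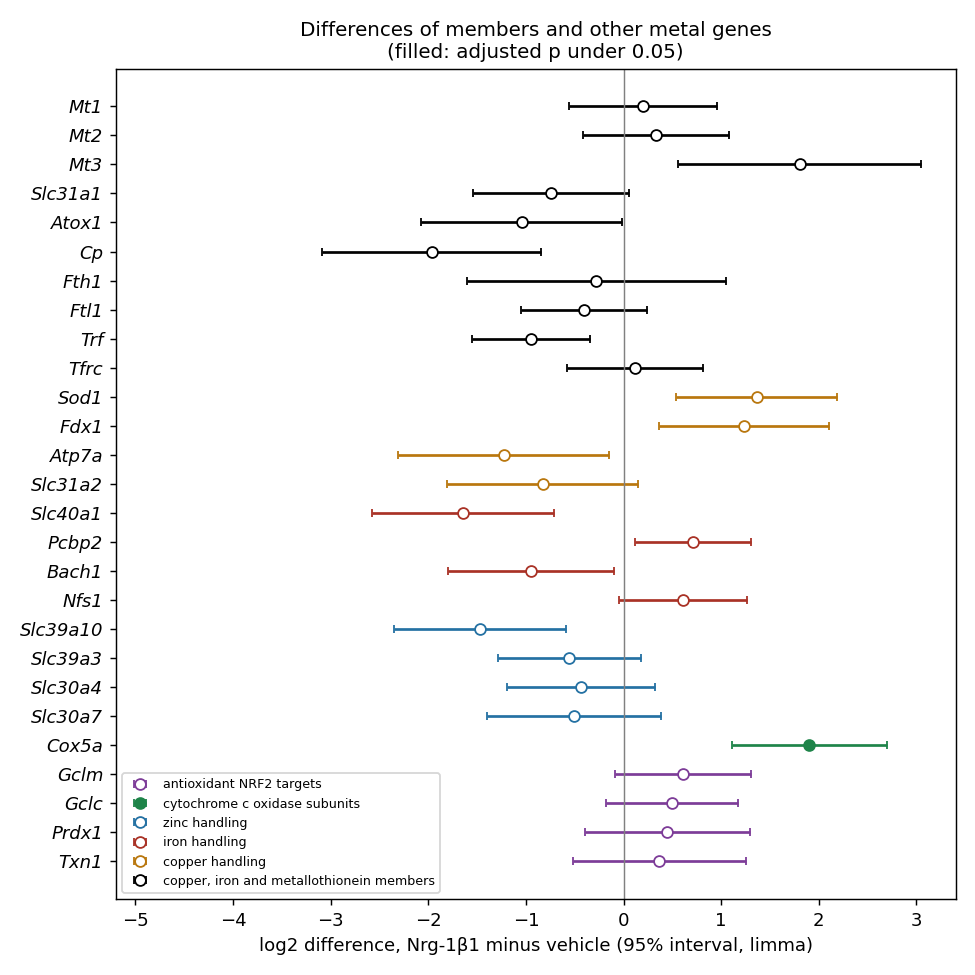
Log2 difference between Nrg-1β1 and vehicle (horizontal axis, limma, 95% interval) of the 10 genes and of the named genes of the other lists; filled symbols passed an adjusted p of 0.05. Cox5a is the filled gene. Intervals exclude 0 on its left for Cp, Trf, Slc40a1, Slc39a10, Atp7a, Bach1 and Atox1, and on its right for Mt3, Sod1, Fdx1, Pcbp2 and Cox5a.

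Markers of other cells also differed between the groups. Of all genes 0.625% fell and 0.438% rose at the adjusted threshold. Of 10 choroid plexus markers 5 fell, 0 rose and 5 did not pass, and their summed normalized count ranged from 1633 to 5088 in vehicle and from 179 to 237 in Nrg-1β1, with Kcne2 at 0 reads in all Nrg-1β1 libraries. Of 10 endothelial markers 9 fell and 1 did not pass, with sums of 664 to 3417 and of 124 to 164. Of 10 microglial markers 7 fell and 3 did not pass, with sums of 7169 to 12146 and of 2588 to 3394, and of 8 measured erythroid markers 4 fell, with sums of 3547 to 9805 and of 750 to 2268. These values stand beside the lower levels of Cp, Trf, Slc40a1, Slc31a1 and Atox1, and their part in those levels was not tested.

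Of all genes 13.0% lay under an unadjusted p of 0.05 (6.15% higher and 6.86% lower, limma). The difference was negative for 47.8% of all genes. Of 10 oligodendrocyte markers 0 passed, but 9 had a negative difference, 3 lay under an unadjusted p of 0.05 and the median was -0.54. Their sums, 94731 to 191692 in vehicle and 108744 to 141230 in Nrg-1β1, overlapped. Their part in the lower level of Trf, an oligodendrocyte transcript, was not tested. Of 10 astrocyte markers 0 passed (limma), although all 10 differences were positive (median 0.71) and 5 lay under an unadjusted p of 0.05, and the sums, 26572 to 38717 in vehicle and 48336 to 48992 in Nrg-1β1, did not overlap. The neuron markers had 0 past the threshold with 4 under an unadjusted p of 0.05 and sums of 2921 to 5362 and of 6896 to 9281. Neither the part of these shifts in the level of Mt3 nor in that of Mt1 and Mt2 was tested. In bulk RNA, fewer cells of a type and less RNA per cell cannot be told apart.

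**Figure D4:**
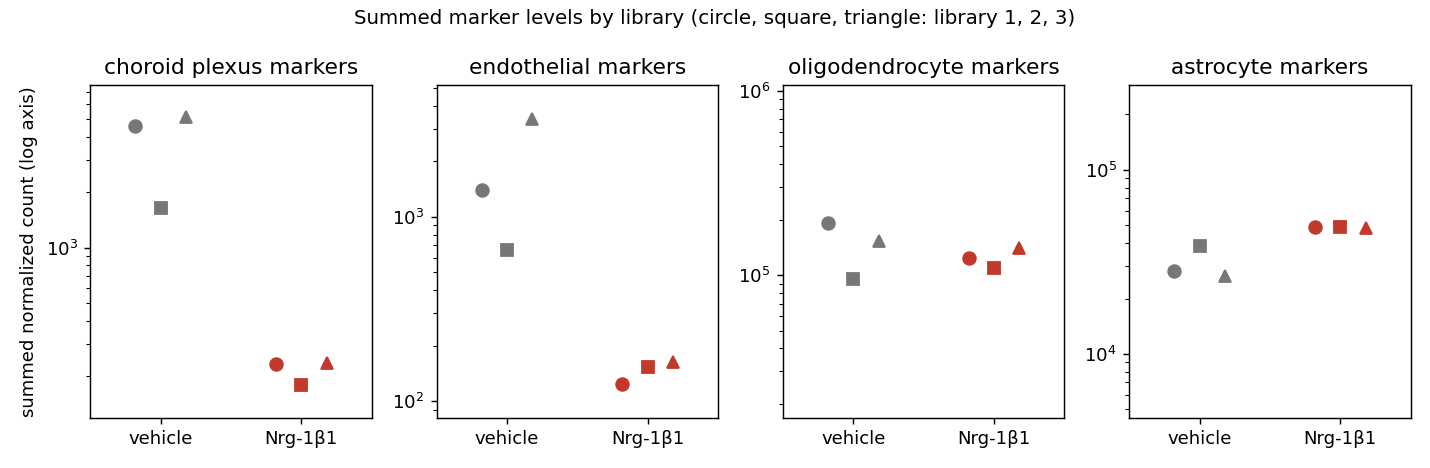
Summed normalized count of 10 markers per cell type (log axis) in each library for vehicle (grey) and Nrg-1β1 (red), with symbols for library 1, 2 and 3. Choroid plexus and endothelial sums are lower in every Nrg-1β1 library, oligodendrocyte sums overlap, and astrocyte sums are higher in every Nrg-1β1 library.

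The genes whose profiles over the 6 libraries were most like those of the members were sought among 6723 other genes, each averaging 50 normalized counts or more. For Mt3 they were Gm8692, Rpl34 and Rpl38, at root mean square differences of 0.19, 0.23 and 0.32 log2 units, the latter 2 being ribosomal protein genes. For Mt1 they were Uqcr10, Ran and Dbi (0.12 to 0.15), and for Mt2 Snf8, Gm11826 and Rplp0 (0.0864 to 0.11). For Cp they were Slc39a10, Esyt2 and Ace (0.35 to 0.37), for Trf Rbm3, Gadd45g and Srsf9 (0.0865 to 0.13), and for Slc31a1 Mpzl1, Sun1 and Pdgfrb (0.14 to 0.18). For Fth1 the nearest was Imp3 (0.11), for Ftl1 Ube2d3 (0.11), for Tfrc Aqp4 (0.0997) and for Atox1 Spcs2-ps (0.22). These likenesses rest on 6 libraries that also differ in depth, and are given as a description.

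**Figure D5:**
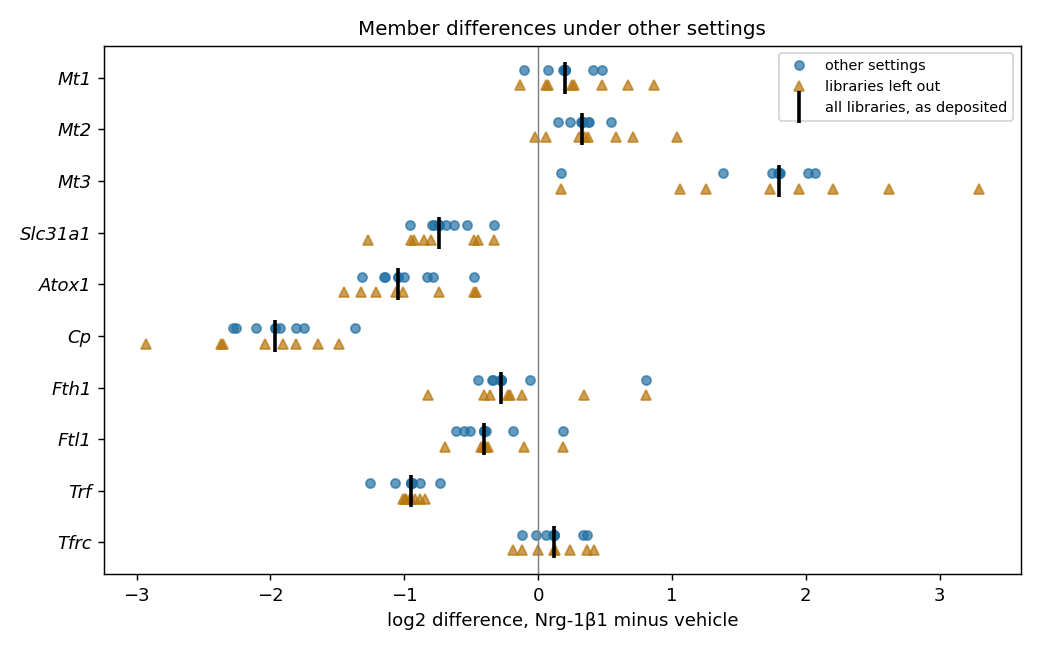
Log2 difference between Nrg-1β1 and vehicle of the 10 genes (horizontal axis) with all libraries as deposited (black bar), under other settings (blue) and with libraries left out (orange). Cp, Trf, Slc31a1 and Atox1 stay below 0 and Mt3 above 0 throughout, while Mt1, Mt2, Fth1, Ftl1 and Tfrc fall on both sides of it.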

How the data were processed

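Per the submitters' processing notes reads were handled with Trimmomatic and Bowtie2. For versions, genome build, counter, strand setting and normalization the entry is "not given in the sources used here", and overlapping genes could not be separated by strand. The authors deposited log2 values for 27102 genes, of which 6779 are blank in all libraries and 20323 were analysed. The values were read as log2(normalized count + 4). After unlogging and subtracting 4, 100% of values were whole multiples of 1 step per library (within 0.02 reads), which gave reads and depth, from 567073 to 72953034 per library, and a read is worth 0.0605 to 5.17 normalized counts. Rows with only a number (1917) were named through RefSeq where possible (980).

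Groups were compared with limma 3.58.1 (R 4.3.3), with an intensity trend, group as the only term and Benjamini-Hochberg adjustment over all analysed genes at 0.05, two-sided. The fit was also run on simulated counts. These had the same relative spread for every gene, and libraries that differed in the number of reads only, so they cannot show how the fit performs on these data. Whole reads entered limma-voom as an alternative. Other settings changed the pseudocount, filter, scaling, trend, replicate block, depth term and libraries. The members, lists and tests were chosen with earlier results of these data known. All members were named, and of each list the genes past the threshold, or otherwise the 4 with the smallest p. Markers were summed by list. Single markers (Alas2 included), Ddx3y, Xist, Mtf1 and Ftl1-ps1 were named after their values were seen. Sequences come from GENCODE M21 transcripts and the RefSeq promoter table, matched by gene number.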

Additional observations from a re-analysis of the deposited data

How the results depend on the processing

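The count of genes past the threshold was not stable. It was 216 (89 higher, 127 lower) with all libraries as deposited, and 335 higher and 164 lower, 499 in all, after centring on library medians. It was 129 with a pseudocount of 1, 49 among genes averaging 50 normalized counts or more, 65 with quantile normalization, 21 without the intensity trend, 6 with limma-voom and TMM factors and 14 with limma-voom and library totals. It was 0 with read depth class as a term, 0 without the 2 deep vehicle libraries and 0 without vehicle libraries 1 and 2 (a setting added after seeing the data), with 1729, 1589 and 2059 genes under an unadjusted p of 0.05. Leaving out single libraries gave 0 to 56, with 56 without vehicle library 1, 4 without vehicle library 3 and 0 without any of the other 4. Some settings also hold fewer samples or genes, and the cause of these changes was not tested.

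The members past the threshold were 0 in all settings but centring on library medians, which gave 1 (Mt3), and the replicate block, which gave 2 (Mt3 and Cp, adjusted p = 0.003 and 0.0162, limma). With the replicate block 627 genes passed in all. The labels name no pairing, and same-numbered libraries did not deviate together (correlations of -0.27, -0.07 and -0.30). Deviations were taken from group means of 3 libraries that also differ in depth, so these correlations cannot exclude a pairing. Sod1, Slc40a1 and Slc39a10 passed with the block too. The filter on low values removed Cp, Slc40a1, Atp7a, Atox1, Slc31a2 and Slc30a7, which have no value under it. Where 1 vehicle library remained, it was assumed to vary like the others.

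Signs turned for small differences. Mt1 was -0.11 with quantile normalization. Fth1 was 0.81 and Ftl1 0.18 both with the depth term and without the deep libraries, where Prdx1 was -0.0773. Tfrc was -0.12 with TMM factors, -0.0185 with library totals and -0.12 without vehicle libraries 1 and 2. Over single libraries left out, the ranges were -0.13 to 0.67 for Mt1, -0.0270 to 0.71 for Mt2, -0.82 to 0.34 for Fth1, -0.70 to -0.10 for Ftl1, -1.45 to -0.47 for Atox1, -0.95 to -0.45 for Slc31a1, -0.19 to 0.42 for Tfrc, -0.0678 to 0.71 for Prdx1 and -0.14 to 0.81 for Txn1. Mt3 ran from 1.06 without vehicle library 3 to 2.62 without vehicle library 2, and was 3.29 without vehicle libraries 1 and 2. In the Nrg-1β1 libraries 1 read is worth 3.04 to 5.17 normalized counts. This limits genes with few reads there, such as Cp, Atox1, Slc31a1, Slc40a1, Atp7a and Alas2.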
